A study of Mus musculus with 13 samples.

Results

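Mast cells were followed here through 7 of their genes, measured by bulk RNA sequencing of mouse perivascular adipose tissue (PVAT), the fat around blood vessels. The genes were chosen by name as known mast cell genes, and all 7 were found among the 34013 genes of the count table. Of these, 4 encode granule proteases (Cpa3, Mcpt4, Cma1 and Tpsb2) and 3 encode receptor chains (Kit, Fcer1a and Ms4a2). All mice carried a C57BL/6 background and had received splenocytes. The donors were wild-type mice for WTS-R (3 libraries), Nlrp3 KO mice for NS-R (3 libraries), mice with type 2 diabetes (T2DM) for TS-R (4 libraries) and Nlrp3 KO mice with T2DM for NTS-R (3 libraries). The labelled genotype is WT for WTS-R and TS-R and Nlrp3 KO for NS-R and NTS-R, without saying whether donor or recipient is meant. How diabetes was induced, the Nlrp3 allele, whether recipients kept their own lymphocytes, and the age, sex and time of collection were not stated by the labels used. The labels do not say that libraries came from separate animals, so p-values measure the spread between these libraries, which may be technical. The study asked how immune cells from diabetic donors act on this fat.

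Mast cells are long-lived tissue cells that store histamine and proteases in granules and release them when an allergen crosslinks IgE on their surface. Stem cell factor, the product of Kitl, keeps them alive through its receptor Kit. In mice, connective tissue mast cells carry the chymases encoded by Mcpt4 and Cma1, the tryptase encoded by Tpsb2 and the carboxypeptidase encoded by Cpa3, whereas mucosal mast cells carry the chymases of Mcpt1 and Mcpt2. Fat depots hold mast cells mainly of the connective tissue kind, often along vessels. In bulk tissue, fewer mast cells and less RNA per mast cell cannot be told apart.

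Library totals ran between 14216706 (NTS-R replicate 3) and 37011122 counts (NS-R replicate 1), and 3 counts, the upper limit that a count of 0 allows, correspond to 0.0811 to 0.211 CPM (counts scaled to the library total). This floor covers counting error alone. Adipocyte genes marked every library as fat, with Adipoq lowest at 438 CPM (TS-R replicate 3) and highest at 1813 CPM (NTS-R replicate 1). Tissue content nonetheless differed within groups. T and B cell genes were high in TS-R replicates 2, 3 and 4, skeletal muscle genes were highest in TS-R replicate 1, airway genes were present in NS-R replicates 1 and 2, and Xist was high in NS-R replicate 3 and TS-R replicate 3 alone. Nlrp3 itself was at 0.601, 0.226 and 0.693 CPM (WTS-R), 1.03, 0.456 and 1.36 CPM (NS-R), 0.537, 1.35, 3.55 and 1.16 CPM (TS-R) and 1.22, 0.483 and 0.352 CPM (NTS-R). The groups overlapped, and libraries labelled Nlrp3 KO were not set apart from those labelled WT by this gene.

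The connective tissue protease set was present in all 13 libraries and the mucosal chymases were not. Mcpt4 had 4366 counts over all libraries, Tpsb2 had 4142, Cma1 had 3232 and Cpa3 had 2383, each above 3 counts in 13 of 13 libraries. Mcpt1 had 1 count in all and Mcpt2 had 2. Mcpt8 and Prss34, proteases of basophils, which also express Cpa3, stayed low: Mcpt8 was at 0 in 8 of 13 libraries with at most 0.239 CPM, and Prss34 lay between 0.0703 and 0.744 CPM. Fcer1a, the IgE-binding alpha chain of the high-affinity IgE receptor, had 149 counts in all and exceeded 3 counts in 12 libraries. Ms4a2, the signal-amplifying beta chain of that receptor, had 70 counts and exceeded 3 in 10 libraries. Together the 7 genes made up between 0.00462% (WTS-R replicate 2) and 0.0114% (WTS-R replicate 3) of a library's counts, so counting error was small for the proteases and Kit and large for the IgE receptor chains.

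Compared per length of exon sequence, the protease transcripts led and the receptor chains followed. The mean level over 13 libraries was 15.4 CPM per kb for Mcpt4, 11.1 for Cma1, 10.1 for Tpsb2, 6.30 for Cpa3, 2.36 for Kit, 0.584 for Fcer1a and 0.0965 for Ms4a2. On this scale Mcpt4 was above Cma1 in 12 libraries and Cma1 above Tpsb2 in 9, so that Cma1 and Tpsb2 did not keep a fixed order. Tpsb2 was above Cpa3, Cpa3 above Kit, Kit above Fcer1a, and Fcer1a above Ms4a2 in 13 of 13 libraries each. Lengths came from the GENCODE M21 annotation, which may not be the one used for counting.

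Mcpt4 and Cma1 lie on the minus strand of chromosome 14 in a cluster of related serine protease genes, Tpsb2 lies on the plus strand of chromosome 17 beside other tryptase genes, and Cpa3 lies on the minus strand of chromosome 3. The 250 bases before the start sites of the 3 proteases for which a promoter entry was matched are shown, to set letter matches for mast cell transcription factors beside the genes' levels. GATA2 is a transcription factor that mast cells need, and its family binds DNA through a GATA core. The search on both strands was for the hexamer AGATAA, its variant with a G at the end, AGATAG, and the same pair starting with T, namely TGATAA together with the hexamer TGATAG. No match overlaps a match of the other motif searched at these 3 promoters, and matches are in capitals. The sequences are from RefSeq, build GRCm38.p6, each 5′ to 3′ on its gene's strand.
Cpa3, chr3:20242182-20242431, minus strand: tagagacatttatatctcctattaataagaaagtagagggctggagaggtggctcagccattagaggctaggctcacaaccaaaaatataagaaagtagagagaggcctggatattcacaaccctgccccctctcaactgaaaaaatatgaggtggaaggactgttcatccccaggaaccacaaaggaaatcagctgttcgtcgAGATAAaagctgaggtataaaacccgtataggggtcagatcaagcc
Mcpt4 chr14:56062311-56062560, minus strand: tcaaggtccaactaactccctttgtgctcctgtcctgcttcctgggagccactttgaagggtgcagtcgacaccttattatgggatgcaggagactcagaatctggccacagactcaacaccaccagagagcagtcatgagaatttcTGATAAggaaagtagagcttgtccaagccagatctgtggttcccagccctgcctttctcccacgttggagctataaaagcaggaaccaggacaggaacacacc
Cma1 chr14:55944676-55944925, minus strand: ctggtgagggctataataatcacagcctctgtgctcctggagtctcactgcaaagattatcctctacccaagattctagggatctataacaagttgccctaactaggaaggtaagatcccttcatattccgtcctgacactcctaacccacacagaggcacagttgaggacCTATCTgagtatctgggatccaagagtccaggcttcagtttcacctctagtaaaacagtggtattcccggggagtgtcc
The Cpa3 match starts 46 bases before the start site and the Mcpt4 match 103 bases before it. The Cma1 match, 79 bases before the start, reads AGATAG on the opposite strand. Of the 6 members with an entry, Fcer1a held 1 GATA match, Ms4a2 held 3 and Kit held 0, against 27.1% of 27025 mouse promoter windows of this length with at least 1. The E-box hexamer CACGTG, or alternatively the form CACATG, both known to bind MITF, matched once, at Fcer1a, against 17.6% of all windows. These are letter matches in a window, not measured binding. Gata2 itself was at 10.7 to 21.8 CPM and Mitf at 5.65 to 10.5 CPM over the 13 libraries.

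Most measured neighbours of the expressed proteases were near 0. On chromosome 14, where Cma1 had 3232 and Mcpt4 4366 counts over all libraries, Cma2 had 12, Mcpt8 had 14, Gzmd had 2 and Gzmc had 7. Ctsg, the cathepsin G gene of myeloid cells, reached 6.24 CPM (TS-R replicate 3) and 2.64 CPM (TS-R replicate 2) and was at or under 0.207 CPM elsewhere. Gzmb, the cytotoxic granule protease, had 310 counts and reached 2.78 CPM. In the tryptase cluster, Tpsab1 had 293 counts, Tpsb2 had 4142 and Tpsg1 had 94. Tpsab1 and Tpsb2 are close paralogs, and the labels do not say how reads that match both were counted, so the split between them is uncertain. The same caution applies to the chymase genes.

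**Figure D1:**
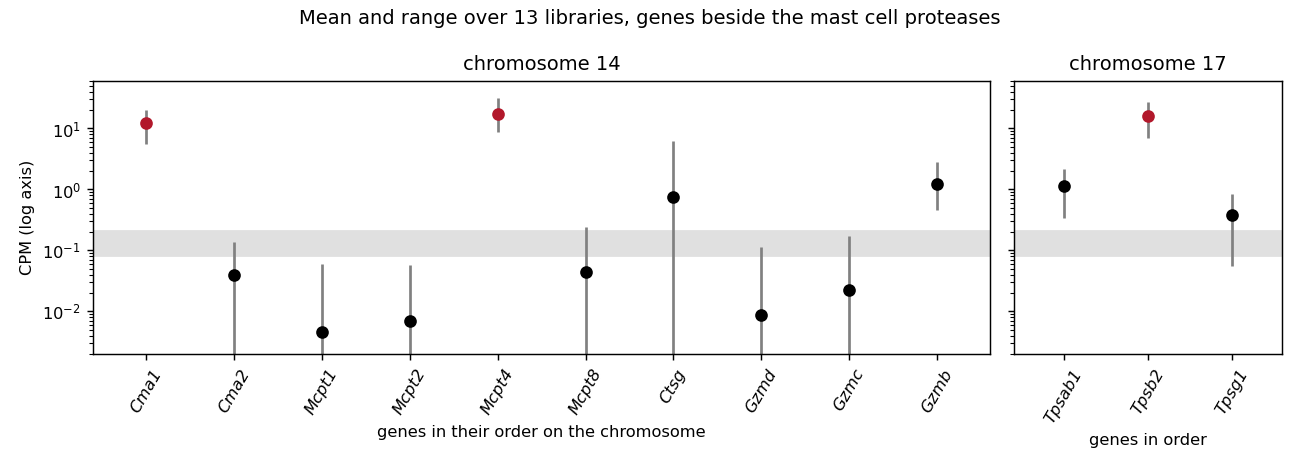
Level of each gene of the chymase cluster (left) and tryptase cluster (right), in chromosome order, in CPM on a log axis. Points are means and lines span the lowest to the highest of 13 libraries, cut at the axis where a library was at 0, members are in red, and the grey band spans the 3-count floors (0.0811 to 0.211 CPM). Cma1, Mcpt4 and Tpsb2 stand well above the band in every library, whereas Mcpt1 and Mcpt2 lie under it.

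The proteases varied widely within WTS-R and TS-R and less within NS-R and NTS-R. Mcpt4, a chymase that acts much like human chymase, was at 16.4, 9.04 and 31.2 CPM (WTS-R replicates 1 to 3, in order), 15.6, 17.2 and 18.0 CPM (NS-R), 26.3, 14.9, 8.87 and 16.6 CPM (TS-R) and 15.1, 17.6 and 15.1 CPM (NTS-R). The highest and lowest libraries thus came from the same pair of groups, WTS-R and TS-R, and all 4 groups overlapped. Tpsb2, the tryptase, was at 15.9, 9.09 and 27.5 CPM (WTS-R), 16.5, 18.1 and 14.5 CPM (NS-R), 25.4, 13.5, 6.85 and 16.5 CPM (TS-R) and 16.1, 15.7 and 13.1 CPM (NTS-R). It was high and low in the same libraries as Mcpt4.

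Cma1, which encodes the granule protease known as mouse mast cell protease 5, was at 11.6, 5.76 and 19.98 CPM (WTS-R), 16.2, 14.3 and 9.51 CPM (NS-R), 20.4, 8.93, 5.66 and 11.2 CPM (TS-R) and 11.9, 10.9 and 11.6 CPM (NTS-R). Again WTS-R replicate 3 and TS-R replicate 1 were highest and WTS-R replicate 2 and TS-R replicate 3 lowest. Cpa3, the carboxypeptidase stored with the chymases, was at 9.73, 6.27 and 16.2 CPM (WTS-R), 10.3, 12.7 and 9.74 CPM (NS-R), 6.88, 6.97, 5.46 and 10.7 CPM (TS-R) and 10.03, 8.69 and 10.6 CPM (NTS-R). Cpa3 differed from the other proteases in TS-R replicate 1, where it was low while they were high.

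Kit followed another order. It was at 18.7, 15.8 and 17.9 CPM (WTS-R), 19.6, 14.6 and 28.6 CPM (NS-R), 27.4, 36.5, 23.4 and 20.7 CPM (TS-R) and 19.1, 16.3 and 14.8 CPM (NTS-R). In CPM each of the 4 TS-R libraries exceeded every library of WTS-R and of NTS-R. The share of all genes that separated in this way is not given here. Scaled by library size alone, the median log2 fold change of all genes was 0.31 in TS-R against WTS-R. It was -0.33 in NTS-R against TS-R. Kit is also made by interstitial pacemaker cells, melanocytes and progenitors, and markers of these cells were present. Without Kit, the 3 pacemaker genes summed to 58.8 to 81.2 CPM in WTS-R, 47.9 to 92.6 CPM in NS-R, 24.7 to 86.0 CPM in TS-R and 48.7 to 66.1 CPM in NTS-R, mostly from the chloride channel gene Ano1. One of them, the transcription factor gene Etv1, named after its values were seen, was higher in each TS-R library (3.07 to 5.34 CPM) than in every WTS-R library (2.03 to 2.71 CPM). For Etv1 too, the share of all genes that separated in this way is not given. Its fitted value in TS-R against WTS-R was 0.53 on the log2 scale (SE 0.35, edgeR FDR 0.388). The others, Ano1 and Thbs4, had fitted values below 0 in that comparison, -0.33 (edgeR FDR 0.658) and -0.34 (edgeR FDR 0.663). The 5 melanocyte genes analysed summed to 4.81 to 9.01 CPM in WTS-R, 6.84 to 7.68 CPM in NS-R, 6.38 to 8.997 CPM in TS-R and 5.28 to 7.36 CPM in NTS-R. Sox10, which glia also express, was the highest of them at 1.40 to 5.87 CPM, and Tyr, the pigment enzyme, the lowest at up to 0.514 CPM. The 6 progenitor and innate lymphoid genes other than Kit summed to 132 to 195 CPM in TS-R, 104 to 148 CPM in WTS-R, 127 to 150 CPM in NS-R and 107 to 124 CPM in NTS-R. The sums in TS-R lay above those in NTS-R, but single genes did not all do so. Cd34, the highest of them in every library, was at 63.9 to 172 CPM in TS-R and 88.8 to 107 CPM in NTS-R. In TS-R replicate 3, rich in T and B cell genes, Il7r was at 57.6 CPM and Flt3 at 33.9 CPM. The part of these cells in the Kit level was not tested.

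The IgE receptor chains were near the limit of these libraries. Fcer1a was at 0.300, 0.169 and 0.693 CPM (WTS-R), 0.594, 0.456 and 0.650 CPM (NS-R), 0.772, 0.676, 0.443 and 0.899 CPM (TS-R) and 0.464, 0.621 and 0.844 CPM (NTS-R), on 3 to 23 counts a library. Ms4a2 was at 0.240, 0.0565 and 0.189 CPM (WTS-R), 0.378, 0.285 and 0.354 CPM (NS-R), 0.201, 0.541, 0.273 and 0.257 CPM (TS-R) and 0.0580, 0.345 and 0.352 CPM (NTS-R), on 1 to 14 counts. WTS-R held the lowest library for both genes. The third chain, the gamma chain encoded by Fcer1g, is shared with macrophages and other Fc receptors, and it ranged from 11.4 CPM (WTS-R replicate 2) to 51.7 CPM (TS-R replicate 3).

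**Figure D2:**
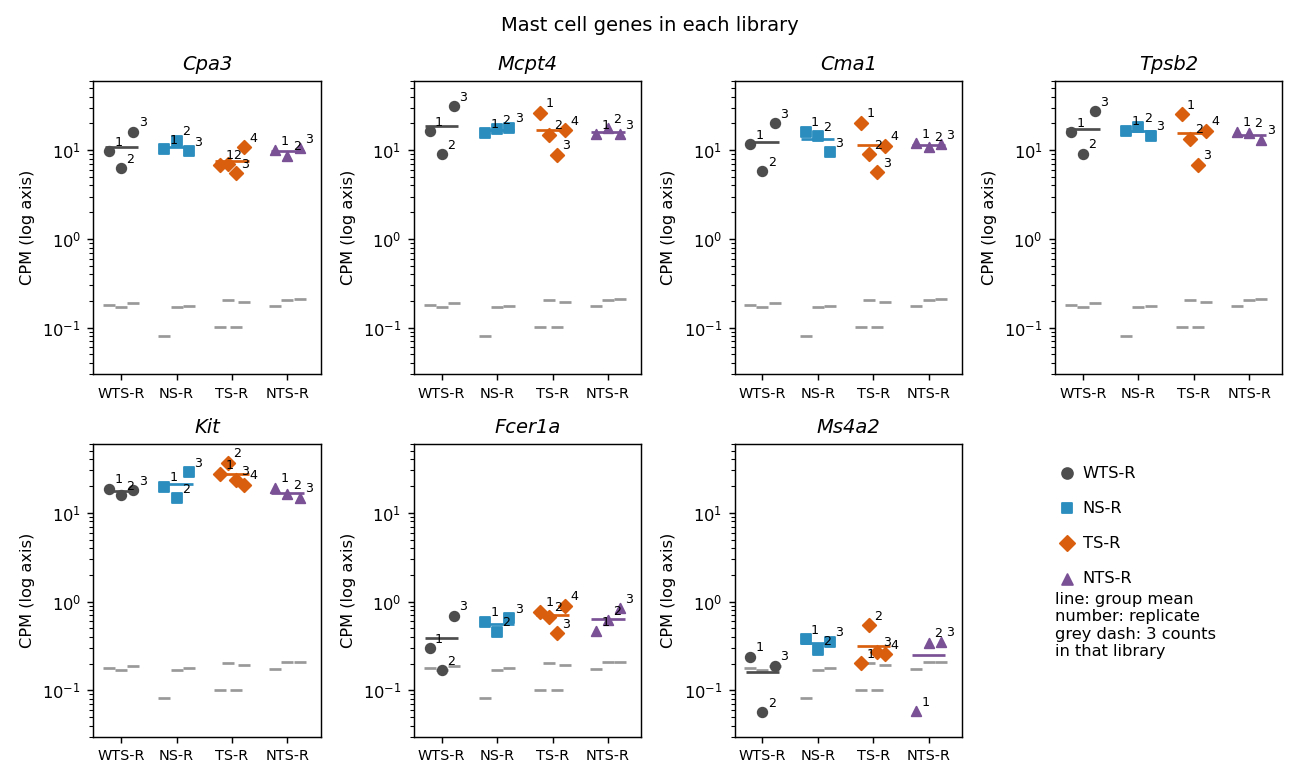
CPM (log axis) of the 7 mast cell genes in each library by group, with the replicate number beside each point, a line at the group mean and grey dashes at 3 counts in that library. Protease values spread most in WTS-R and TS-R, and the TS-R values of Kit (20.7 to 36.5 CPM) lie above those of WTS-R and NTS-R. After TMM scaling Kit overlapped between TS-R (lowest 19.4 CPM) and WTS-R (highest 20.01 CPM).

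Mcpt4 and Tpsb2 kept nearly the same proportion across libraries, and Cma1 followed them less closely. The ratio of Mcpt4 to Tpsb2 counts stayed between 0.935 (NTS-R replicate 1) and 1.29 (TS-R replicate 3), although each gene ranged more than 3-fold. The SD of the log2 ratio was 0.150, close to the 0.124 that counting error gives, whereas the SD of log2 CPM was 0.494 for Mcpt4 and 0.527 for Tpsb2 (n = 13). For Tpsb2 against Cma1 the SD of the log2 ratio was 0.184 with 0.137 from counting, and for Mcpt4 against Cma1 it was 0.250 with 0.135 from counting. Cpa3 was looser: the SD of its log2 ratio to Mcpt4 was 0.394 with 0.142 from counting, and Mcpt4 exceeded Cpa3 by 3.83 times in TS-R replicate 1 against 1.35 to 2.15 times in the other 12 libraries. The ratio of Mcpt4 to Kit ran from 0.379 in TS-R replicate 3 to 1.74 in WTS-R replicate 3.

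Over the 13 libraries the 6 pairs of proteases had Pearson r from 0.644 to 0.959 on log2(CPM + 0.5), and from 0.693 to 0.961 after each group's mean was removed. With 21 pairs of members tested by permutation and adjusted by Benjamini-Hochberg, 3 protease pairs passed 0.05. Mcpt4 with Tpsb2 had r = 0.96 (permutation p = 8e-05, adjusted 0.00084) and Spearman's rho = 0.75 (p = 0.00444, adjusted 0.0466). Cma1 with Tpsb2 had r = 0.95 (permutation p = 1e-05, the smallest that 100000 resamples can give, adjusted 0.00021) and rho = 0.86 (p = 0.00045, adjusted 0.00945). Mcpt4 with Cma1 had r = 0.90 (permutation p = 0.00031, adjusted 0.00217), while its rho of 0.62 (p = 0.0289) had an adjusted value of 0.152.

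Without the 2 libraries farthest from the median these 3 values of r were 0.93, 0.89 and 0.83. The 3 pairs with Cpa3 were at 0.64 to 0.68 with adjusted permutation p between 0.0542 and 0.0607 and fell to between 0.19 and 0.37 without WTS-R replicate 3 and TS-R replicate 3, so they rested on those libraries. None of the 15 pairs with Kit, Fcer1a or Ms4a2 passed, and their r lay between -0.43 and 0.57. After each group's mean was removed, r of these pairs lay between -0.19 and 0.79. The highest were those of Fcer1a with Mcpt4 (0.79), Cpa3 (0.77), Tpsb2 (0.69) and Cma1 (0.67). These centred values were not tested. All values share each library's total as denominator.

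**Figure D3:**
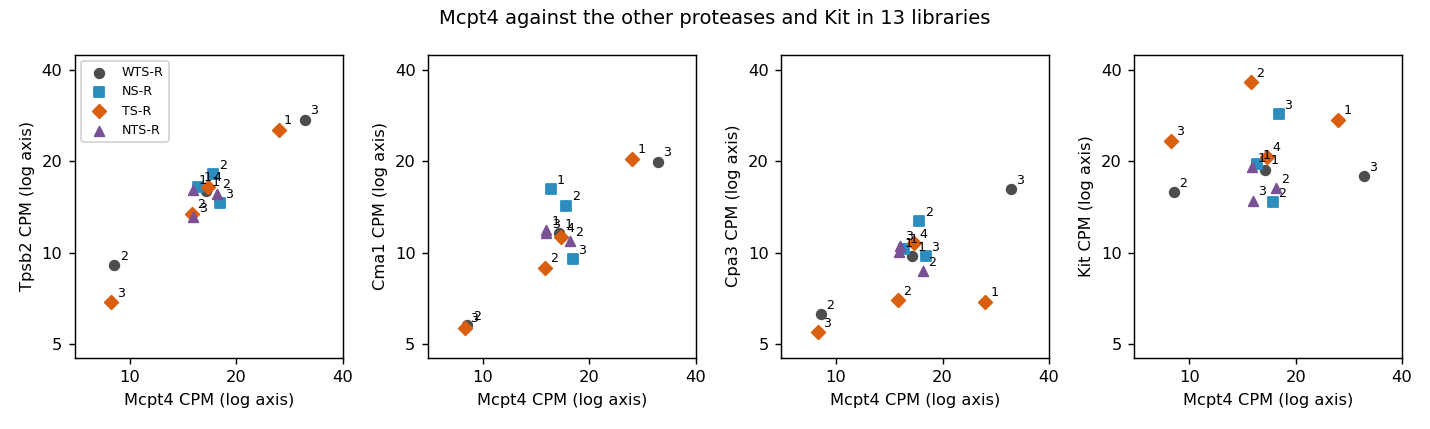
CPM of Tpsb2, Cma1, Cpa3 and Kit (vertical) against Mcpt4 (horizontal) in the 13 libraries, log axes, with colours and markers for groups and replicate numbers beside points. Tpsb2 and Cma1 line up with Mcpt4, Cpa3 does so more loosely with TS-R replicate 1 farthest off, and Kit does not.

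Within WTS-R and TS-R, library content moved with the protease levels. Of 6 skeletal muscle markers, the summed level was 1538 CPM in WTS-R replicate 3 and 19.8 and 12.99 CPM in WTS-R replicates 1 and 2. In TS-R it was 11718 CPM in replicate 1, 831 and 1429 CPM in replicates 2 and 4 and 13.1 CPM in replicate 3. In both groups the library highest in Mcpt4, Tpsb2 and Cma1 was thus the one richest in muscle transcripts, and the lowest had least muscle. In NTS-R the muscle sum ranged from 244 to 1824 CPM while Mcpt4 stayed between 15.1 and 17.6 CPM, and in NS-R from 38.3 to 878 CPM with Mcpt4 between 15.6 and 18.0 CPM. The order did not hold throughout in these groups. In NS-R, replicate 1 was richest in muscle, lowest in Mcpt4 (15.6 CPM) and highest in Cma1 (16.2 CPM). Myh4, the fast myosin, was at 0 in WTS-R replicate 1 and NS-R replicate 2. TS-R replicate 3, the lowest of the 13 libraries in 4 of 4 proteases, also had the highest sum of 7 T cell genes, 652 CPM against 5.41 to 7.50 CPM in WTS-R, and of 6 B cell genes, 1970 CPM against 9.13 to 11.5 CPM. The part of muscle and lymphoid content in the mast cell values was not tested by itself.

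**Figure D4:**
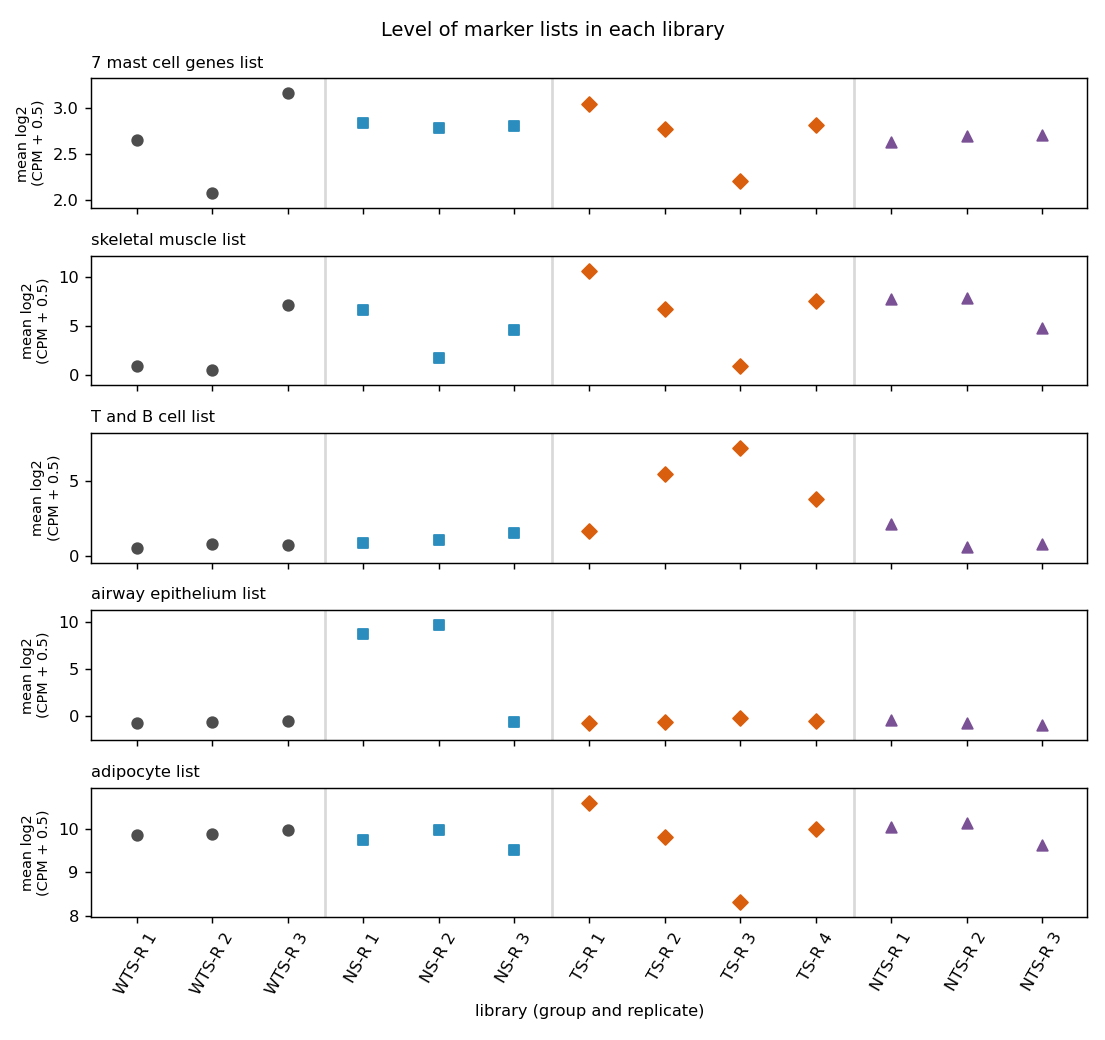
Mean log2(CPM + 0.5) of the 7 mast cell genes and of 4 lists of marker genes in each library, with vertical lines between groups. The mast cell level is highest in WTS-R replicate 3 (3.16) and TS-R replicate 1 (3.05) and lowest in WTS-R replicate 2 (2.07) and TS-R replicate 3 (2.20), and stays within 2.63 and 2.84 in NS-R and NTS-R.

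No member passed the test between recipients of diabetic and of wild-type splenocytes (TS-R against WTS-R). Cpa3 averaged 7.51 ± 2.26 CPM (SD, n = 4) in TS-R and 10.7 ± 5.04 CPM (SD, n = 3) in WTS-R. Its fitted log2 fold change was -0.76 (SE 0.32, edgeR FDR 0.1825), and the groups overlapped. Mcpt4, Cma1 and Tpsb2 had fitted values of -0.43, -0.36 and -0.42, with SE between 0.38 and 0.42 and edgeR FDR between 0.537 and 0.647. These fits scale libraries by TMM, which corrects for composition and which set TS-R libraries at factors of 1.055 to 1.212 and WTS-R libraries at 0.899 to 0.981. Scaled by library size alone, the median of all genes rose by 0.28, so member changes are relative to that choice.

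Kit averaged 27.0 ± 6.90 CPM (SD, n = 4) in TS-R and 17.5 ± 1.51 CPM (SD, n = 3) in WTS-R. The fitted log2 fold change was 0.35 (95% interval -0.22 to 0.93, edgeR FDR 0.457). With TMM scaling TS-R replicates 3 and 4 came to 19.4 and 19.7 CPM, under the 20.01 CPM of WTS-R replicate 1, so the groups overlapped on that scale. With the clock gene level of each library as a covariate, the fitted values of Kit and Fcer1a were -0.12 and -0.06. That level was at most 0.39 in WTS-R and at least 1.69 in TS-R, so these adjusted values rest on extrapolation. Fcer1a had a fitted value of 0.59 (SE 0.49, edgeR FDR 0.504), which was 1.25 without WTS-R replicate 3 and 0.25 without WTS-R replicate 2. Ms4a2 did not pass the filter on low counts and was not tested by edgeR.

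By edgeR 0 of 6 members tested had an FDR under 0.05, where 0% of all 17270 genes did. By an unadjusted p under 0.05 from edgeR it was 1 of 6 members, which was Cpa3, beside 22.3% of all genes. DESeq2 called 0 of 7 members beside 9.64% of genes, and limma's voomWithQualityWeights called 0 of 6 beside 22.1%, with Kit closest at an adjusted p of 0.0534. The median over the 6 members was -0.39 and over all genes 0.03. This median was 0.10 without WTS-R replicate 3, where Mcpt4, Cma1 and Tpsb2 had fitted values of 0.09, 0.11 and 0.02. With the lymphoid level as a covariate the median was 0.51 and those 3 genes were at 0.44, 0.70 and 0.58. That level was 0.55 to 0.78 in WTS-R and 1.65 to 7.23 in TS-R on the log2 scale, so these adjusted values rest on extrapolation.

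The comparison of donors with diabetes, with and without Nlrp3 (NTS-R against TS-R), uses the same TS-R libraries. Cpa3 averaged 9.76 ± 0.957 CPM (SD, n = 3) in NTS-R, and its fitted log2 fold change was 0.66 (SE 0.32, edgeR FDR 0.273). Kit averaged 16.8 ± 2.18 CPM (SD, n = 3), with a fitted value of -0.40 (95% interval -0.97 to 0.18, edgeR FDR 0.432). All 3 of these libraries lay below all 4 of TS-R in CPM and after TMM scaling (at most 19.1 against at least 19.4). The share of all genes that separated in this way is not given here. Mcpt4, Cma1, Tpsb2 and Fcer1a had fitted values of 0.23, 0.28, 0.23 and 0.19, each under its SE. Scaled by library size alone these were -0.07, -0.02, -0.06 and -0.11, and the median of all genes fell by 0.30.

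For NTS-R against TS-R edgeR called 0 of 6 members at an FDR under 0.05 and 0 of 6 at an unadjusted p under 0.05, beside 0% and 19.7% of all genes. DESeq2 called 0 of 7 beside 6.88% of genes and voomWithQualityWeights 0 of 6 beside 9.48%. The member median was 0.23 and that of all genes -0.03. Without TS-R replicate 3 the median was 0.02, and with the lymphoid covariate it was -0.43, with Mcpt4, Cma1 and Tpsb2 at -0.53, -0.61 and -0.61. The lymphoid level was 0.61 to 2.11 in NTS-R and 1.65 to 7.23 in TS-R. With so narrow an overlap, these adjusted values rest largely on extrapolation.

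Without diabetes, donor Nlrp3 loss was compared in NS-R against WTS-R. Fitted values of the 6 members ran from -0.16 (Mcpt4) to 0.54 (Fcer1a) with a median of 0.04, and that of all genes was 0.01. EdgeR called 0 of 6 at an FDR under 0.05 and 0 of 6 at an unadjusted p under 0.05, beside 0% and 5.31% of all genes. DESeq2 called 0 of 7 beside 1.54%, and voomWithQualityWeights 0 of 6 beside 0.0811%. The 3 NS-R libraries lay inside the WTS-R range for Mcpt4, Cma1, Tpsb2 and Cpa3, including replicates 1 and 2, which carried airway transcripts.

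The effect of diabetes among Nlrp3 KO donors (NTS-R against NS-R) gave fitted values from -0.30 (Kit) to 0.23 (Fcer1a), a median of -0.09 and a median over all genes of -0.01. EdgeR again called 0 of 6 by FDR and 0 of 6 by unadjusted p, beside 0% and 6.36% of genes. DESeq2 called 0 of 7 beside 1.81% and voomWithQualityWeights 0 of 6 beside 0.0695%. The summed level of the 7 genes was 79.4 ± 1.83 CPM (SD, n = 3) in NS-R and 69.8 ± 3.19 CPM (SD, n = 3) in NTS-R. It was 77.6 ± 33.96 CPM (SD, n = 3) in WTS-R and 79.4 ± 23.2 CPM (SD, n = 4) in TS-R.

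The interaction asks whether donor diabetes acted differently with and without Nlrp3, as NTS-R minus NS-R less TS-R minus WTS-R. Kit had a value of -0.66 (SE 0.39, edgeR FDR 0.3895) and Cpa3 a value of 0.65 (SE 0.47, edgeR FDR 0.479). Without NS-R replicate 3 Kit was at -0.24, and without WTS-R replicate 3 Cpa3 was at 0.29. The member median was 0.28, with -0.06 for all genes, and -0.19 without WTS-R replicate 3. EdgeR called 0 of 6 by FDR and 0 of 6 by unadjusted p, beside 0% and 18.3% of all genes, DESeq2 0 of 7 beside 6.29% and voomWithQualityWeights 0 of 6 beside 10.8%. In each comparison the 95% intervals of the chymases and the tryptase included changes of 0.5 on the log2 scale upward or downward, or both, so a moderate change was not detectable at this spread.

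**Figure D5:**
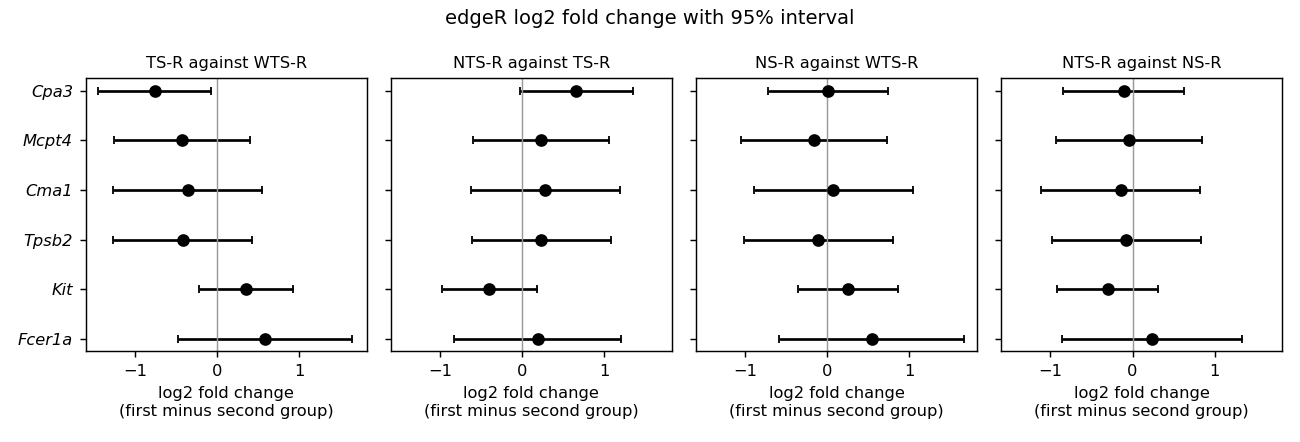
Fitted log2 fold change (edgeR, first group minus second) with its 95% interval for the 6 members tested, in 4 comparisons. Of the intervals shown, that of Cpa3 in TS-R against WTS-R, -1.45 to -0.07, is the one that leaves out 0, before adjustment for the number of genes tested.

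Other genes of mast cells were read from a list of 55, of which 53 were in the table and 41 were tested. In TS-R against WTS-R 0 of 41 had an edgeR FDR under 0.05, and 14 had an unadjusted p under 0.05, of which 13 were higher in TS-R, beside 22.3% of all 17270 genes in either direction. All 9 genes of IgE receptor signalling in the list, such as Syk and Btk, were among the 13, with a median log2 fold change of 2.58. These kinases and adaptors are shared with lymphocytes, and the 7 T cell genes had a median of 4.97 in the same comparison. The other 4 were Rgs13, Slc18a2, Serpinb1a and Il33, named after their values were seen. Rgs13 reached 26.0 CPM (TS-R replicate 3) and was at or under 1.89 CPM elsewhere. By the same unadjusted count, NTS-R was higher than TS-R in 2 genes and lower in 12, beside 19.7% of all genes. NS-R was higher than WTS-R in 1 and lower in 0, beside 5.31%, and NTS-R was higher than NS-R in 0 and lower in 3, beside 6.36%. In the interaction 0 were above and 10 below, beside 18.3%.

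Of the 41 genes tested in that first comparison, 18 had fitted values below 0. The 1 of these with an unadjusted edgeR p under 0.05 was Hdc, histidine decarboxylase, which makes histamine. Hdc was at 21.9, 16.1 and 14.4 CPM (WTS-R), 20.7, 33.97 and 19.5 CPM (NS-R), 9.53, 14.4, 8.87 and 17.5 CPM (TS-R) and 18.2, 10.8 and 8.51 CPM (NTS-R). In TS-R against WTS-R its fitted value was -0.74 (SE 0.33, edgeR FDR 0.209), with overlapping groups. In NTS-R against NS-R it was -0.95 (SE 0.35, edgeR FDR 0.593, unadjusted p 0.0196), and all 3 NTS-R libraries lay below all 3 of NS-R in CPM. The share of all genes that separated so is not given. Over the same pair of groups 6.36% of all genes had an unadjusted edgeR p under 0.05. Over the 13 libraries its Pearson r with the mean standardised level of the 4 proteases, a measure added after the data were seen, was 0.25, beside 0.45 for Il1rl1, the IL-33 receptor, and 0.54 for Mitf. These are given as a description with no test.

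Tpsab1 had a fitted value of -1.09 in the same comparison (SE 0.53, edgeR FDR 0.250), with 1.57 ± 0.519 CPM (SD, n = 3) in WTS-R and 0.874 ± 0.595 CPM (SD, n = 4) in TS-R. It passed with voomWithQualityWeights (adjusted p 0.0257), and with the lymphoid level as a covariate in edgeR its value was -0.14. Mrgprb1, at 0.614 to 2.39 CPM, and Mrgprb2, the mast cell receptor that responds to basic peptides and drugs, at 0.120 to 0.985 CPM, were low. Hpgds, which makes prostaglandin D2, ranged from 0.781 CPM in WTS-R replicate 1 to 9.65 CPM in TS-R replicate 3. Kitl, the Kit ligand made by stromal and endothelial cells, lay between 38.6 and 119.5 CPM, highest in NTS-R replicate 3. Il33, an alarmin, lay between 9.83 CPM in WTS-R replicate 2 and 40.6 CPM in TS-R replicate 3.

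Markers of other granulocytes were present at low levels. The 7 eosinophil genes summed to 3.56 to 4.41 CPM in WTS-R, 2.48 to 6.38 CPM in NS-R, 3.52 to 13.1 CPM in TS-R and 2.90 to 4.75 CPM in NTS-R. Ear2, an eosinophil ribonuclease gene, was the highest of them by mean, at 1.24 to 5.81 CPM and above 3 counts in 13 of 13 libraries, while Epx and Ear6 were at 0 in 12 libraries. Prg2, the major basic protein gene, had 0.240, 0.226 and 0.189 CPM (WTS-R) against 0.671, 0.879, 4.13 and 1.48 CPM (TS-R). Il5ra, the IL-5 receptor gene, which some B cells also express, had 0.180, 0.113 and 0 CPM (WTS-R) against 0.336, 1.83, 4.98 and 0.514 CPM (TS-R). For both, chosen after their values were seen, every TS-R library lay above every WTS-R library and TS-R replicate 3 was highest. Of the 3 eosinophil genes tested, Ear2 went the other way, with a fitted log2 fold change of -0.54 (edgeR FDR 0.470). The share of all genes that separated between TS-R and WTS-R is not given here. By an unadjusted edgeR p under 0.05, 22.3% of all 17270 genes differed in either direction. Fitted log2 fold changes were 2.71 for Prg2 (edgeR FDR 0.0720) and 3.89 for Il5ra (edgeR FDR 0.0968). Both passed with DESeq2 (adjusted p 0.0141 and 0.0198), beside 9.64% of all genes, and with voomWithQualityWeights (0.0188 and 0.0283), beside 22.1%. In edgeR they also passed without TS-R replicate 1 (FDR 0.0228 and 0.0362), a setting that called 1906 genes in all. With the lymphoid level as a covariate they were at 0.87 and 0.11. The summed level of the 5 basophil genes other than Cpa3 was 4.71 to 17.4 CPM and came mostly from Il3ra, which other cells also make.

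The genes outside the lists whose pattern was most like the mean standardised level of the 7 members, among 15305 genes with a mean of at least 1 CPM, were Ramp2 (r = 0.87), Map3k7cl (0.84), Slc41a3 (0.84), Art5 (0.83) and Gm44950 (0.83) over 13 libraries. With each group's mean removed these values were 0.88, 0.91, 0.83, 0.87 and 0.84. They were picked as the highest of many, so they are a description with no test. Each member set against the mean of the other 6 gave r of 0.85 for Mcpt4, 0.78 for Tpsb2, 0.76 for Cma1, 0.68 for Fcer1a, 0.45 for Cpa3, 0.24 for Ms4a2 and 0.06 for Kit.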

How the data were processed

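The authors deposited whole-number counts per gene, a column for each of the 13 libraries. HISAT2 and featureCounts were used per the submitters' processing notes. For their versions, the genome build, the annotation and the strandedness: not given in the sources used here. Per the labels' protocols RNA was extracted with TRIzol and made into paired-end mRNA libraries with an ABclonal kit.

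The members and gene lists were chosen with earlier results of these data known. Of 34013 identifiers 33302 matched a symbol, and each member matched 1 identifier. CPM were counts divided by the library total. All 13 libraries, grouped by title, entered one edgeR 4.0.16 quasi-likelihood fit in R 4.3.3 with TMM, filterByExpr (17270 genes) and Benjamini-Hochberg adjustment over all genes tested at 0.05. The common biological coefficient of variation was 0.389 with 3.50 prior degrees of freedom. DESeq2 1.42.0 and limma 3.58.1 (voomWithQualityWeights), other scalings, no filter, covariates, a replicate block and left-out libraries were tried as alternatives. The fit was tested on simulated data. Replicates were compared by chi-square over genes, and each pair differed beyond sampling noise (at least 32.4 per degree of freedom). Named genes were the 7 members, further mast cell genes and markers of other cells chosen by a written rule, and the 5 genes outside the lists most like the members. Lists fixed for the tests hold 55 other mast cell genes, of which Mcpt9 and Il3 were not analysed here, and markers of other cell types. Correlations used numpy 2.4.6 with 100000 permutations. Levels between genes were compared per kb of exon union from GENCODE M21.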

Additional observations from a re-analysis of the deposited data

Results flagged for a closer look

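Of 17 values checked in TS-R, the one group of 4 libraries, 1 had a library far from the others. The ratio of Cma1 to Cpa3 counts was 2.97 in TS-R replicate 1, and the gap to the nearest library was 0.874 of the group's range, above Dixon's 95% critical value for 4 samples. The ratio was 1.28, 1.04 and 1.05 in TS-R replicates 2, 3 and 4. Chance flags about 1 in 20 such groups. TS-R replicate 1 was also the library with the highest skeletal muscle sum, 11718 CPM, and its part in this ratio was not tested. Of the 6 members tested by edgeR, 0 were called in the interaction.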

How the results depend on the processing

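Across 25 alternatives (24 for the interaction), 0 members were called in every comparison, so no call depended on a setting. All-gene counts did: edgeR called 0 genes in each comparison as fitted, and voomWithQualityWeights called 3816 between TS-R and WTS-R, 1638 between NTS-R and TS-R, and 1872 in the interaction. Leaving out both Xist-high libraries gave 674 calls for NS-R against WTS-R, with 758 for NTS-R against NS-R.

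With the lymphoid level as a covariate the member median was 0.51 in TS-R against WTS-R (from -0.39), -0.43 in NTS-R against TS-R (from 0.23) and -0.59 in the interaction (from 0.28), and it was -0.068 in the interaction without both Xist-high libraries. Under that covariate Mcpt4, Cma1 and Tpsb2 were at 0.44, 0.70 and 0.58 in TS-R against WTS-R, and, with Fcer1a, at -0.53, -0.61, -0.61 and -0.33 when NTS-R was set against TS-R. The clock covariate put Kit at -0.12 and Fcer1a at -0.059 in TS-R against WTS-R. Neither the lymphoid nor the clock level overlapped between TS-R and WTS-R, so adjusted values in that comparison rest on extrapolation. Between NTS-R and TS-R the lymphoid level overlapped only from 1.65 to 2.11. The interaction includes both of these comparisons of TS-R, so its lymphoid-adjusted values carry the same limit. Library size alone gave -0.070, -0.016, -0.058 and -0.11 for Mcpt4, Cma1, Tpsb2 and Fcer1a when NTS-R was set against TS-R, and the data without both Xist-high libraries gave -0.0018, -0.034 and -0.017 for Mcpt4, Tpsb2 and Fcer1a. Fcer1a was at -0.0066 with voomWithQualityWeights and at -0.043 without TS-R replicates 1 and 3, an alternative chosen after the data were seen. The causes were not tested.

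Leaving out each library in turn, the median ranged from -0.70 to 0.10 in TS-R against WTS-R, from 0.02 to 0.52 in NTS-R against TS-R, and from -0.19 to 0.60 in the interaction. In TS-R against WTS-R, Mcpt4 ranged from -0.75 to 0.092, Cma1 from -0.73 to 0.11 and Tpsb2 from -0.72 to 0.016, each positive without WTS-R replicate 3. In NTS-R against TS-R, Tpsb2 ranged from -0.0035 (without TS-R replicate 3) to 0.54 and Fcer1a from -0.10 (without NTS-R replicate 3) to 0.43. Cpa3 kept its sign under all 25 alternatives in both of these comparisons, from -1.02 to -0.38 and from 0.37 to 0.93. Fcer1a ranged from 0.25 (without WTS-R replicate 2) to 1.25 (without WTS-R replicate 3) in TS-R against WTS-R, and from 0.19 to 1.19 without these same libraries in NS-R against WTS-R. Without TS-R replicate 2, Kit was at 0.17 in TS-R against WTS-R and at -0.20 in NTS-R against TS-R. In the interaction Kit ranged from -0.87 (without NS-R replicate 2) to -0.24 (without NS-R replicate 3), and Cpa3 from 0.29 (without WTS-R replicate 3) to 0.92 (without TS-R replicate 4). In NS-R against WTS-R, Mcpt4 ranged from -0.49 (without WTS-R replicate 2) to 0.35 (without WTS-R replicate 3) and was at 0.035 with voomWithQualityWeights. In NTS-R against NS-R, Kit ranged from -0.52 (without NS-R replicate 2) to 0.10 (without NS-R replicate 3) and was at 0.091 without both Xist-high libraries. Fcer1a there ranged from -0.048 (without NTS-R replicate 3) to 0.48 (without NTS-R replicate 1) and was at -0.041 with the clock covariate. Without the NS-R libraries carrying airway transcripts, an alternative chosen after the data were seen that leaves 1 NS-R library assumed to vary like the other groups, Mcpt4 was at 0.10 in NS-R against WTS-R and Fcer1a at -0.13 in NTS-R against NS-R.

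Deviations of same-numbered libraries correlated weakly between groups (-0.21 to 0.19), which cannot decide whether they were paired. In 5 of 12 pairs, including 3 of 3 in NTS-R against NS-R, the best correlation was with the same number. With a replicate block the member medians were -0.42, 0.33, 0.07, -0.10 and 0.34 in the 5 comparisons in the order reported, and all-gene calls became 784 in TS-R against WTS-R, 76 in NTS-R against TS-R and 19 in the interaction. A pseudocount of 0.1 in place of 0.5 changed the range of the member level over libraries from 1.09 to 1.30 on the log2 scale. Counts of 1 to 14 for Ms4a2 and 3 to 23 for Fcer1a limit what can be read for the IgE receptor.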
